A study of Mus musculus with 4 samples.

Results

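The genes described here are 40 genes of the lysosome, the acidic organelle in which cells break down proteins, lipids, sugars and engulfed debris. They were taken by symbol from the 53647 genes of the count tables, as a list covering 9 cathepsins, 8 other hydrolases, 2 hydrolase activators, 6 membrane proteins, 11 genes of the proton pump, 2 ion channels and 2 transcription factors. All 40 symbols were found, each with 1 gene ID and with UMIs (unique molecular identifiers, each standing for 1 captured transcript) in every library. The samples were 4 single-cell RNA libraries of spinal cord from aged mice of the inbred strain C57BL/6J. The tissue was the segment holding the lesion, taken 28 days after spinal cord injury. Mice had received either IgG (2 libraries) or an antibody to the T cell co-receptor CD8 (Anti-CD8, 2 libraries), so both groups were aged and injured. The submitters call the libraries of a group biological replicates. The sources used here do not give the age in months, the antibody dose or the number of mice in a library, and p-values measure only the spread between these libraries.

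Lysosomal enzymes are made in the secretory pathway and become active when the vacuolar ATPase, a multi-subunit proton pump, acidifies the organelle. Cathepsins are its proteases, the other hydrolases cut glycans, lipids and phosphate esters, and activators such as the saposins cut from Psap help them reach their substrates. The transcription factors TFEB and MITF can raise many lysosomal genes through a short promoter sequence, the CLEAR motif. In the injured spinal cord, microglia (the resident macrophages) and blood-derived macrophages take up myelin and cell debris, and their lysosomes digest it.

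The libraries held between 152457679 and 170539226 UMIs. Between 6108 and 7816 cells per library were kept, and pairs of libraries shared 7 to 23 cell barcodes. Cells fell into 28 clusters, which were named from marker genes, so every class name below means "like" that cell type. The members and the other lysosomal genes were left out of the genes used for clustering. Myeloid cells made up 4 classes. These were microglia (10624 cells in 6 clusters), Spp1-high myeloid cells (4453 cells in 2 clusters), a cluster led by Apoc4, Ms4a7 and Saa3 that met no marker rule (3103 cells, here the Apoc4-led cluster) and monocyte/macrophages led by Mrc1, F13a1, MHC class II genes and the member Acp5 (1660 cells). Libraries differed in 1 microglial cluster led by interferon-response genes, which held 437 and 69 cells in the IgG libraries and 54 and 104 cells in the Anti-CD8 libraries. Microglia were also deeper in the IgG libraries, where the median cell had 21267 and 21302 UMIs, against 16334 and 18252. The median cell was deeper in both IgG libraries in the other myeloid classes as well.

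Levels are given as CPM (UMI counts summed over the cells of a class in a library and scaled to a common total). The assay counts transcript 3′ ends, 1 UMI per molecule, so CPM values were compared between genes without a length term. The 40 genes together took 4.43% ± 0.092 of the UMIs of Spp1-high myeloid cells (SD, n = 4 libraries). They took 3.74% ± 0.046 in the Apoc4-led cluster, 3.43% ± 0.218 in monocyte/macrophages and 3.12% ± 0.102 in microglia. The values of the 4 libraries did not overlap between Spp1-high myeloid cells and any other class. Outside the myeloid classes the sum was 0.687% ± 0.173 in pericytes and smooth muscle, 0.621% ± 0.093 in neurons, 0.439% ± 0.025 in ependymal cells, 0.398% ± 0.021 in endothelial cells, 0.327% ± 0.023 in T cells and 0.292% ± 0.040 in NK cells. In this lower order the library values overlapped between pericytes and neurons, between ependymal and endothelial cells and between T and NK cells, but not between neurons and ependymal cells or between endothelial and T cells. Pericytes and smooth muscle also held RNA of 10 microglia markers, at 13.8% and 19.4% (IgG) and 21.4% and 10.8% (Anti-CD8) of the myeloid level. In the other non-myeloid classes this was at most 10.7% in any library. Of the 40 members, only Ctsk and Lamp2 were at least 3 times above that percentage in all 4 libraries of pericytes. The part of this RNA in the pericyte sum was not tested. Spp1-high myeloid cells had the highest mean level of 15 of the 40 genes, monocyte/macrophages of 9, microglia of 5 and the Apoc4-led cluster of 5. Only 6 genes were highest outside the myeloid classes. These were 4 proton pump genes in neurons, Lamp2 in ependymal cells and the cation channel gene Mcoln1 in endothelial cells, where the libraries had 13.4 to 15.1 CPM against 11.4 to 13.1 CPM in microglia.

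**Figure D1:**
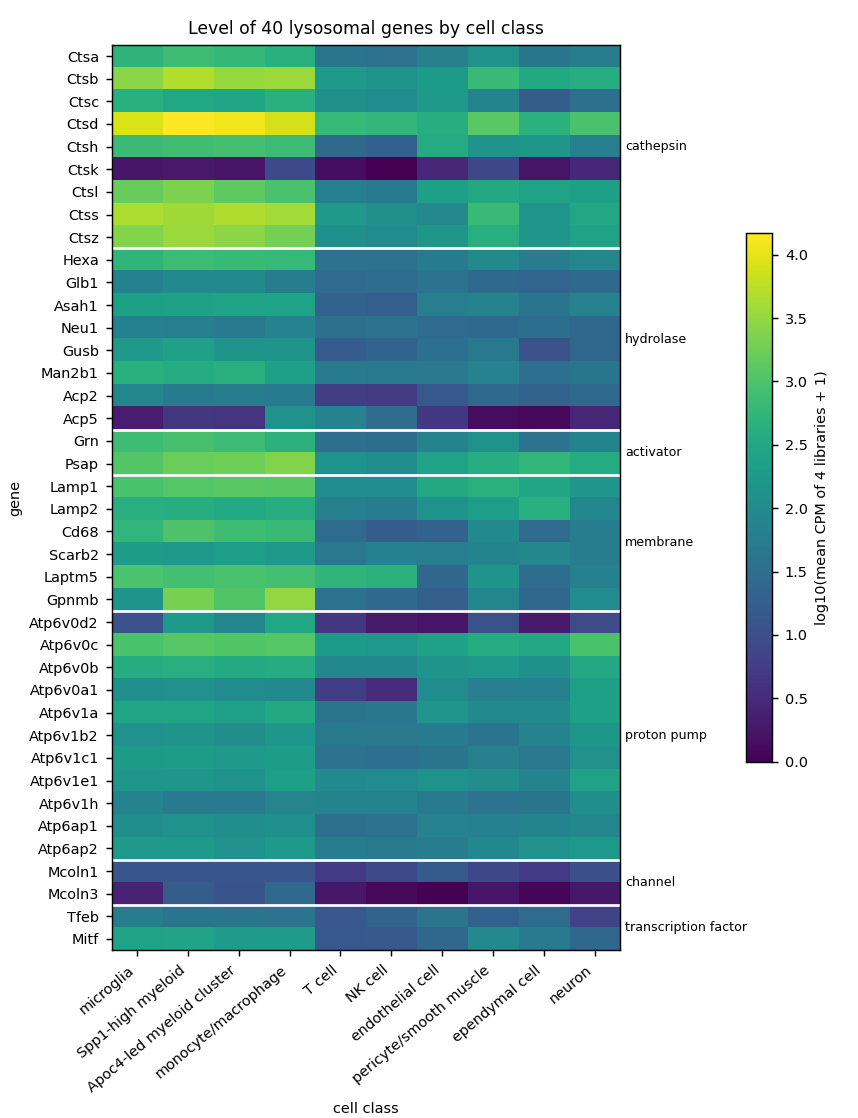
Heat map of the 40 genes (rows, grouped by role) in 10 cell classes (columns), coloured by log10 of the mean CPM of the 4 libraries plus 1. The left 4 columns, the myeloid classes, are brightest for cathepsins, hydrolases and activators, while proton pump genes are also bright in neurons, and Ctsk, Acp5, Atp6v0d2 and Mcoln3 are dark in most classes.

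Promoters are shown for 5 members on which the results below turn: the gene with most UMIs (Ctsd), a proton pump subunit (Atp6v1a), 2 members with large differences between classes (Gpnmb and Acp5) and the member with the smallest antibody p in microglia and in Spp1-high myeloid cells (Grn). RefSeq's promoter table (build GRCm38.p6, 250 bases before to 50 after each start) had entries for 33 of the 40 members. Ctsb, Ctsh, Atp6v0d2, Atp6v1b2, Atp6v1c1, Atp6v1h and Asah1 had none. The 250 bases before the start are printed 5′ to 3′ on the gene's strand, with capitals marking matches on either strand to TCACGTGA (the core of the CLEAR motif), to the E-box CACGTG inside it, or to TCATGTG, a motif bound by MITF that was added after the other motifs. The windows are chr7:142387828-142388077 (Ctsd, minus strand), chr16:44139260-44139509 (Atp6v1a, minus strand), chr11:102430257-102430506 (Grn, plus strand), chr9:22130599-22130848 (Acp5, minus strand, the only one of its 3 windows with a match) and chr6:49036268-49036517 (Gpnmb, plus strand).
Ctsd: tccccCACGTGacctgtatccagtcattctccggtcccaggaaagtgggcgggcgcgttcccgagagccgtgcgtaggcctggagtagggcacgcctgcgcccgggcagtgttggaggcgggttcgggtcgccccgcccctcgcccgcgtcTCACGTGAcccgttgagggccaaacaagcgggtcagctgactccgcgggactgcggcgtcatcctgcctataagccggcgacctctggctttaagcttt
Atp6v1a: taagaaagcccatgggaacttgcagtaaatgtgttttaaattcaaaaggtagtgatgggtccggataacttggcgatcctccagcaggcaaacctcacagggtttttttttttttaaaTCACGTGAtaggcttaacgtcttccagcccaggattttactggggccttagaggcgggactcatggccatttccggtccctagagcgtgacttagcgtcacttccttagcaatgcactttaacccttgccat
Grn: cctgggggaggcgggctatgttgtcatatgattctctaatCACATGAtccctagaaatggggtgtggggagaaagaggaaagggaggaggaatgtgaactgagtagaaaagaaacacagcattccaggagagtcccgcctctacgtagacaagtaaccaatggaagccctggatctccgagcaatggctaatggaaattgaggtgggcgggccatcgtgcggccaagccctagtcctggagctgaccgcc
Acp5: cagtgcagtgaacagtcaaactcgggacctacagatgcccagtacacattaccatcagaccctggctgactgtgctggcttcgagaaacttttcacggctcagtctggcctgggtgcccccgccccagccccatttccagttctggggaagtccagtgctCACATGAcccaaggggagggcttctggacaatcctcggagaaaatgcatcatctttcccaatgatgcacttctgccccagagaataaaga
Gpnmb: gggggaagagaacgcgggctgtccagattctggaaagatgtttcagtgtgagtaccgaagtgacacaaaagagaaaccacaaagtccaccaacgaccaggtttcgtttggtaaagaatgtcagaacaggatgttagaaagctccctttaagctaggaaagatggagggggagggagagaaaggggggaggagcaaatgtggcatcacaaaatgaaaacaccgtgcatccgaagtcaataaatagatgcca
Over the whole windows, TCACGTGA was found in Atp6v1a, Ctsa, Ctsd and Mcoln1, which is 12.1% of the 33 members with an entry, against 1.13% of all 27025 genes. CACGTG was found in 8 members (24.2%, against 8.09% of genes), and 4 of them were the members that held TCACGTGA. TCATGTG was found in Acp5, Atp6v0c, Ctsa, Ctss, Grn and Scarb2 (18.2%, against 4.31%). The 10-base palindrome that extends TCACGTGA by 1 base at each end was in 0 members and in 0.37% of genes. A match is a description of letters, not of binding.

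Cathepsins made up most of the sum in the 4 myeloid classes. The aspartic protease gene Ctsd was the highest member in each of the 4 myeloid classes. Its level in Spp1-high myeloid cells was 14916 and 15075 CPM in the IgG libraries and 14367 and 14625 CPM in the Anti-CD8 libraries. In microglia it was 8944 and 9389 CPM against 7921 and 8407 CPM, so every Spp1-high value lay above every microglial value, 1.70-fold in the means. The cysteine protease genes Ctsb and Ctsl followed the same order, with means of 4838 and 2211 CPM in Spp1-high myeloid cells against 2765 and 1558 CPM in microglia. Ctss, a cysteine protease known for processing the MHC class II invariant chain, ran the other way, with 3761 CPM in Spp1-high myeloid cells, 4518 CPM in microglia and 4673 CPM in the Apoc4-led cluster. Ctsc, which activates granule serine proteases, was also lower in Spp1-high myeloid cells (309 CPM) than in microglia (444 CPM) and had 121 CPM in T cells. Ctsh reached 366 CPM ± 22.9 (SD, n = 4) in endothelial cells, the second highest member there.

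Ctsk, the collagen-cutting cathepsin of osteoclasts, was the lowest cathepsin and the most uneven. It had 7.54 and 13.7 CPM in the IgG monocyte/macrophages and 3.27 and 6.58 CPM in the Anti-CD8 ones, from 252 UMIs in all. Microglia ranged from 0.65 to 0.91 CPM. The macrophage value was higher than the microglial one in each library, by 3.57-fold to 21.0-fold.

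Of the other hydrolases, all but Acp5 differed by less than 2-fold between the means of the myeloid classes. Glb1 had 97.1 CPM in Spp1-high myeloid cells and 56.2 CPM in monocyte/macrophages, and Gusb 240 and 141 CPM. Hexa (a subunit of beta-hexosaminidase) had mean levels from 532 CPM in microglia to 730 CPM in Spp1-high myeloid cells. Man2b1 (lysosomal alpha-mannosidase) had 434 CPM in microglia and 226 CPM in monocyte/macrophages, and Acp2 (lysosomal acid phosphatase) had 80.5 CPM in microglia and 48.9 CPM in Spp1-high myeloid cells, below microglia in each library. Acp5, the tartrate-resistant acid phosphatase used as an osteoclast and macrophage marker, was the exception. It had 137 and 137 CPM in the IgG and 96.7 and 155 CPM in the Anti-CD8 monocyte/macrophages, against 0.55 to 1.54 CPM in microglia. T cells had the second highest level of Acp5, with 63.2 and 69.9 CPM (IgG) and 81.8 and 64.8 CPM (Anti-CD8), and NK cells had 23.2 to 37.5 CPM. Both lymphoid classes thus lay above microglia, Spp1-high myeloid cells (2.55 to 4.45 CPM) and the Apoc4-led cluster (2.48 to 4.28 CPM) in every library.

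The activators split. Psap, the precursor of the saposins, was highest in monocyte/macrophages (2414 CPM, against 1111 CPM in microglia) and was the highest member in ependymal cells (550 CPM ± 15.7; SD, n = 4). Grn, which encodes progranulin, a secreted and lysosomal protein cut into granulins, was highest in Spp1-high myeloid cells (885 CPM) and lowest among the myeloid classes in monocyte/macrophages (485 CPM).

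Among membrane proteins, Cd68, a heavily glycosylated macrophage protein, had 968 to 1068 CPM in Spp1-high myeloid cells and 525 to 566 CPM in microglia, with no overlap. Lamp1 and Lamp2, the main structural membrane glycoproteins, differed by less, with 920 to 1254 CPM for Lamp1 and 347 to 417 CPM for Lamp2 as means of the myeloid classes. Laptm5, a membrane protein of blood cell lysosomes, was near equal in myeloid classes (842 to 975 CPM) and reached 538 CPM ± 16.6 in T cells (SD, n = 4). Gpnmb, a membrane glycoprotein of phagocytes, was the most changeable of the abundant members. It had 178 and 122 CPM in IgG microglia and 109 and 167 CPM in Anti-CD8 microglia. In Spp1-high myeloid cells it had 2055 and 2074 CPM against 1958 and 2074 CPM, and in monocyte/macrophages 3825 and 2624 CPM against 2388 and 3378 CPM. Spp1-high cells were 11.6-fold to 18.0-fold above microglia of the same library. Gpnmb is itself among the leading genes of 1 Spp1-high cluster, although it was not used for clustering.

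Proton pump genes other than Atp6v0d2 differed little between myeloid classes, and in neurons they stood at 63.9% to 192% of the myeloid level. The 11 genes together took 0.258% of microglial UMIs, 0.310% in Spp1-high myeloid cells and 0.263% ± 0.020 in neurons (SD, n = 4), while cathepsins took 2.17% in microglia and 0.228% in neurons. Atp6v0c, the membrane ring subunit, was the highest member in neurons (946 CPM ± 123; SD, n = 4), level with 934 CPM in microglia. Atp6v0a1, the membrane-arm subunit of neurons, had 212 to 236 CPM in neurons and 110 to 130 CPM in microglia, with no overlap. Atp6v1e1 (218 to 267 CPM in neurons, 150 to 170 CPM in microglia) and Atp6v1h (104 to 135 CPM against 65.2 to 80.6 CPM) were also higher in every neuronal value, and so was Atp6v1b2 (149 to 162 CPM against 119 to 136 CPM). Atp6v0d2 was the exception within the pump. It is the alternative d subunit of osteoclasts and macrophages, beside the widespread Atp6v0d1.

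Atp6v0d2 had 10.3 and 8.66 CPM in IgG microglia and 8.86 and 14.0 CPM in Anti-CD8 microglia. In Spp1-high myeloid cells it had 137 and 201 CPM against 183 and 208 CPM, and in monocyte/macrophages 349 and 297 CPM against 195 and 401 CPM. The fold over microglia within a library was 13.2 to 23.2 in Spp1-high myeloid cells and 22.0 to 34.4 in monocyte/macrophages. The partner gene Atp6v0d1 stayed between means of 119 and 171 CPM in the 4 myeloid classes. In microglia Atp6v0d2 was thus far below Atp6v0d1, and in Spp1-high myeloid cells (182 against 130 CPM in the means) and monocyte/macrophages (311 against 171 CPM) it was above it.

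Of the channels, Mcoln1, the widespread lysosomal cation channel, lay between 11.8 and 12.1 CPM in the means of all 4 myeloid classes. Mcoln3, its relative, had 0.99 to 2.35 CPM in microglia, 12.6 to 19.7 CPM in Spp1-high myeloid cells and 19.2 to 31.3 CPM in monocyte/macrophages. The microglial range overlapped neither of the others, while the Spp1-high and monocyte/macrophage ranges overlapped each other. The transcription factor genes did not follow this pattern. Tfeb was highest in microglia (55.5 CPM ± 3.21; SD, n = 4) and lower in Spp1-high myeloid cells (41.2 CPM) and monocyte/macrophages (37.9 CPM) in each library. Mitf had 260 CPM in microglia and 273 CPM in Spp1-high myeloid cells.

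A threshold of at least 2-fold in each of the 4 libraries was used to count these differences, over genes with at least 1 CPM in at least 4 of the 8 sums compared. No p is given, because the classes come from the same cells. Spp1-high myeloid cells were above microglia by this rule for Gpnmb, Atp6v0d2 and Mcoln3, which is 3 of 39 members, while 1.75% of 12835 genes met it. They were below microglia for 0 of 39 members, against 3.3% of genes. The Apoc4-led cluster was above microglia for the same 3 genes, against 0.78% of genes, and below for 0 members, against 3.33%. Monocyte/macrophages were above microglia for those 3 with Ctsk and Acp5 (5 of 40 members, against 4.96% of genes) and below for 0 members, against 7.6%. No microglial value of Ctsk reached 1 CPM, so it passed the filter there only through the macrophage sums, where it was high. Its count as higher than in microglia is thus tied to the filter. Ctsk did not pass the filter in Spp1-high myeloid cells or the Apoc4-led cluster over microglia. Against Spp1-high myeloid cells, monocyte/macrophages were higher for Ctsk and Acp5 (2 of 40 members, against 4.3% of genes) and lower for 0, against 3.89%. Ctsk had a mean of 0.94 CPM in Spp1-high myeloid cells, and its pass of the filter again rested on the macrophage sums. Its count as higher in this pair is thus tied to the filter as well. The median log2 ratio of the members was 0.16 in Spp1-high myeloid cells over microglia, against -0.18 for all genes. It was 0.03 in monocyte/macrophages, against -0.13, so most members differed far less than the 5 named ones.

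**Figure D2:**
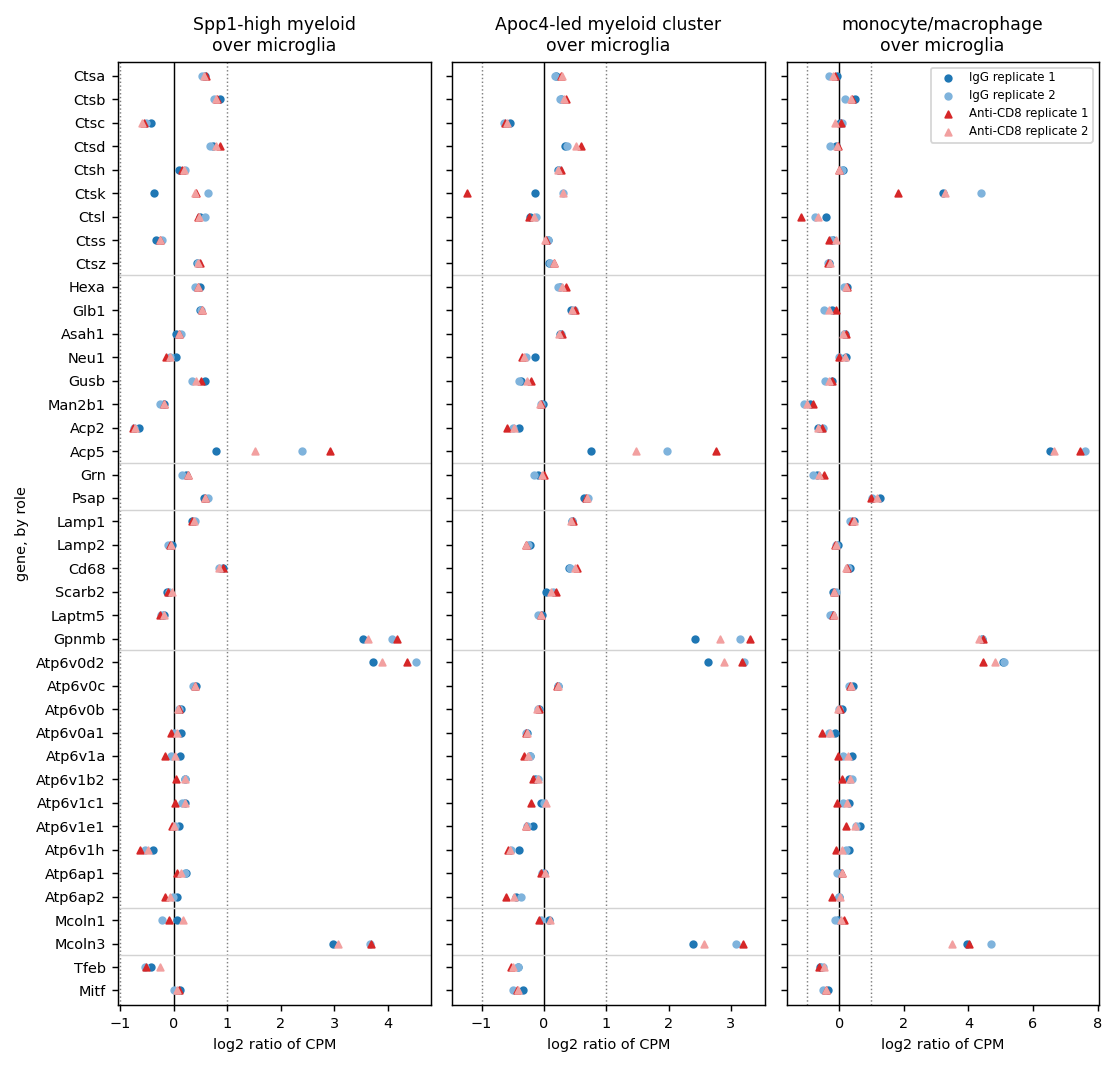
Log2 ratio of CPM over microglia of the same library (horizontal axis) for the 40 genes (rows, by role) in 3 myeloid classes, with circles for IgG and triangles for Anti-CD8 libraries; dotted lines mark 2-fold. Gpnmb, Atp6v0d2 and Mcoln3 stand to the right in all 3 panels and Ctsk and Acp5 in the monocyte/macrophage panel, while most other genes lie between the dotted lines.

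The same 5 genes were also read by cluster, where the monocyte/macrophages are a single cluster. Among the 10 myeloid clusters, Gpnmb ranged 112-fold, from 27.3 CPM in cluster 1 (microglia led by Ccl4, Ccl3 and Cxcl10) to 3054 CPM in cluster 8 (the monocyte/macrophages). Atp6v0d2 ranged 193-fold and Acp5 160-fold, between 0.82 CPM in cluster 6 and 132 CPM in cluster 8. The 2 Spp1-high clusters differed in Atp6v0d2 by library means of 253 CPM (cluster 3, led by Mmp12, Gpnmb and Atp6v0d2 itself) and 94.6 CPM (cluster 5, led by Hbb-bs, Clec4e and Spp1), with no overlap of the 4 libraries. Microglial cluster 17, a cluster of 265 cells with a median depth of 0.419 times that of its libraries, had 126 to 227 CPM of Atp6v0d2, far above the other microglial clusters. In the interferon-led microglial cluster 12, Atp6v0d2 was 12.1 and 14.7 CPM in the IgG libraries and 45.4 and 59.8 CPM in the Anti-CD8 libraries. That cluster held 69 cells or fewer in 2 of the libraries, and this difference was not tested. Cluster 3 had the highest level of 14 members, including Ctsa, Ctsb, Ctsd, Ctsl, Ctsz, Cd68, Lamp1 and Grn, and the highest sum (4.88%). Clusters 1 and 17 had the lowest sum (2.86% in both).

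**Figure D3:**
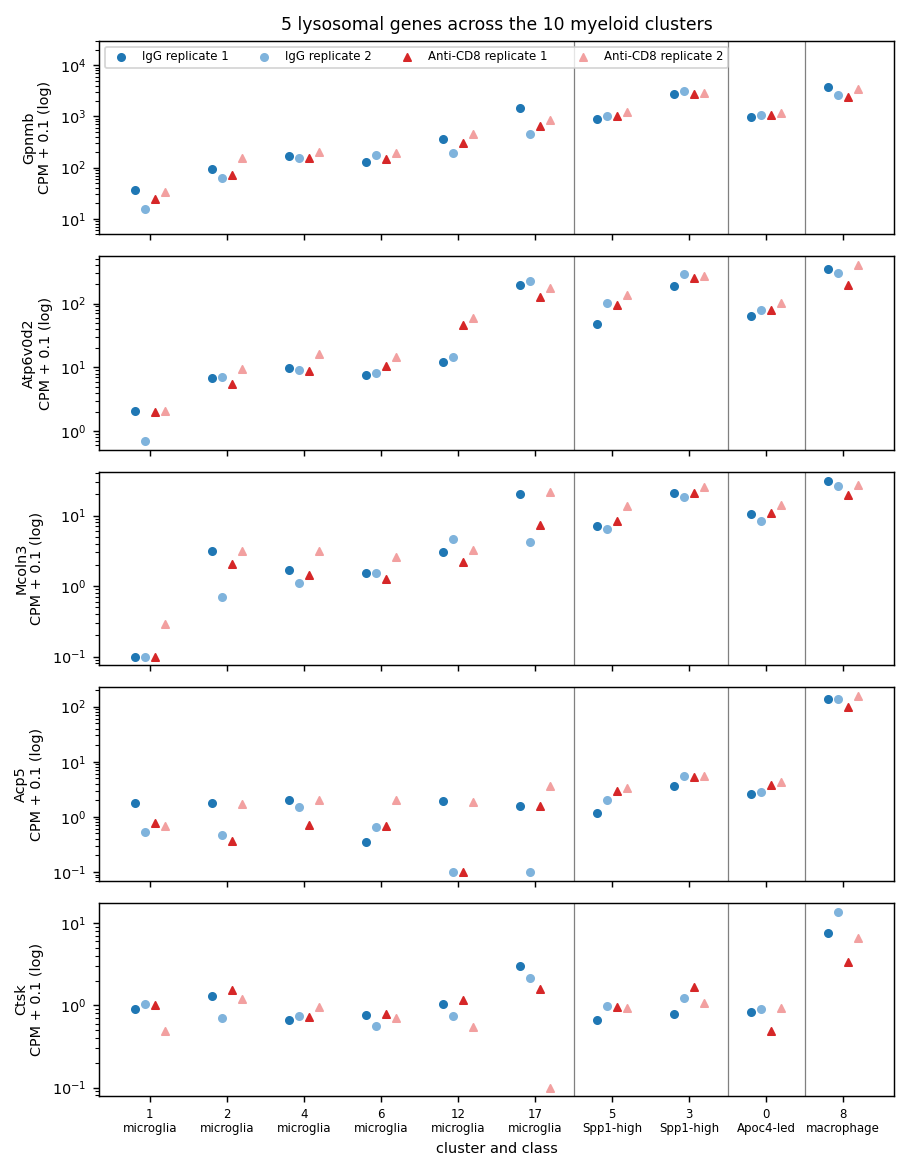
CPM plus 0.1 on log axes for Gpnmb, Atp6v0d2, Mcoln3, Acp5 and Ctsk in the 10 myeloid clusters, 1 point per library (circles IgG, triangles Anti-CD8), so a gene without a UMI sits at 0.1. Gpnmb, Atp6v0d2 and Mcoln3 are high in clusters 17, 5, 3, 0 and 8, and Acp5 and Ctsk mainly in cluster 8.

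To compare shares of cells with a UMI, cells were first thinned to 2000 UMIs each, with T cells as a class expected to lack these genes. At that depth Atp6v0d2 was found in 18.5% ± 4.13 of Spp1-high myeloid cells and 19.3% ± 6.12 of monocyte/macrophages (SD, n = 4), against 1.53% ± 0.416 of microglia and 0.243% ± 0.176 of T cells. Without thinning the shares were 46.2%, 33.8%, 6.42% and 2.00%. Mcoln3 was found in 2.80% ± 0.399, 3.87% ± 0.381, 0.231% ± 0.112 and 0.147% ± 0.294 of the same classes, so its microglial share lay within the spread of the T cell background. The unthinned shares were 20.6%, 17.4%, 2.18% and 0.572%. Ctsk was found in 0.694% ± 0.375 of monocyte/macrophages, 0.143% ± 0.019 of microglia and 0.077% ± 0.154 of T cells (unthinned 7.09%, 1.49% and 0.272%). T cells were no background class for Acp5. It was found in 11.2% ± 3.33 of them (33.2% unthinned), against 15.1% ± 2.60 of monocyte/macrophages (48.8% unthinned) and 0.226% ± 0.110 of microglia (1.69% unthinned). The median depth of T cells was 5916 to 7196 UMIs, below that of microglia. In the IgG libraries 27 of 325 and 82 of 681 thinned T cells had a UMI (exact 95% intervals 5.55% to 11.9% and 9.69% to 14.7%). These intervals cover counting error only.

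Lysosomal genes outside the 40 were read from lists of 211 symbols found in the tables. In Spp1-high myeloid cells over microglia, the 2-fold rule was met by 2 of 47 other hydrolases upward (Smpdl3a, 2.54-fold, and Pld3, a lysosomal nuclease, 2.19-fold) and 2 downward (Pld4 and Naaa). Of 36 membrane proteins and transporters it was met by Cd63 alone (3143 against 1418 CPM in the means), and of 12 other pump subunits by none. In monocyte/macrophages 4 of 48 other hydrolases were higher than in microglia (Smpdl3a, Sgsh, Lipa and Plbd1) and 3 lower (Arsb and Ctsf among them), where 4.96% and 7.6% of all genes were. Lipa, the lysosomal acid lipase that frees cholesterol, had 326 CPM there and 149 CPM in microglia. The cathepsin inhibitors Cst3 (3254 against 12242 CPM) and Cst7 (54.5 against 599 CPM) were lower in monocyte/macrophages in each library. Tfec, a relative of Tfeb and Mitf, had 12.9 CPM in monocyte/macrophages and 2.2 CPM in microglia. Of 18 genes typical of osteoclasts, 12 were measured in Spp1-high myeloid cells and microglia, and 0 were 2-fold higher in the former, while Src and Csf1r were lower.

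Anti-CD8 was compared with IgG to ask whether these genes differed in the cells of the lesion after the antibody. No member passed the test in any myeloid class. The quasi-likelihood test of edgeR was used, adjusted by Benjamini-Hochberg over all genes of a class, and levels beside it are TMM-normalised CPM. In microglia 0 of 40 members were called (0.0% of 17368 genes), 4 had an unadjusted p under 0.05 (8.75% of genes), and 1 (Grn) was called by DESeq2. Over all genes DESeq2 called 60 of 17368 in microglia, where edgeR called 0. In Spp1-high myeloid cells 0 of 40 were called (0.0% of 15551 genes), 2 had an unadjusted p under 0.05 (6.83% of genes), and none by DESeq2. In monocyte/macrophages 0 were called (0.0% of 12383 genes), 2 had an unadjusted p under 0.05 (5.1%), and none by DESeq2. In the Apoc4-led cluster 0 were called (0.0211% of 14238 genes), 4 had an unadjusted p under 0.05 (5.91%), and none by DESeq2.

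Grn had the smallest p in microglia and in Spp1-high myeloid cells. Its level in microglia was 860 and 810 CPM in the IgG libraries and 683 and 678 CPM in the Anti-CD8 libraries. The groups did not overlap, and the log2 fold change was -0.30 (SE 0.06, edgeR adjusted p = 0.473). DESeq2 gave the same log2 size, -0.29, with an adjusted p of 0.018, and over all 13 alternatives the adjusted p ranged from 0.018 to 0.787. Without the interferon-led cluster 12 the value was -0.31. In Spp1-high myeloid cells Grn had 992 and 911 against 842 and 802 CPM (log2 -0.21, SE 0.07, edgeR adjusted p = 0.653, and 0.0351 without the filter on low counts), and in the Apoc4-led cluster 804 and 721 against 700 and 663 CPM (log2 -0.16). The IgG values were above the Anti-CD8 values in all 3 of these classes. Without the filter on low counts edgeR called 243 of 27535 genes in Spp1-high myeloid cells, against 0 of 15551 with it. Depth moved with the antibody too, in microglia as given above and in the other classes. The median cell had 31230 and 31300 UMIs (IgG) against 25755.5 and 27823 (Anti-CD8) in Spp1-high myeloid cells. In the Apoc4-led cluster it had 25560 and 25865 against 21666 and 23080. The part of depth in these differences was not tested.

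Ctsb, Ctsa and Ctsd came next in microglia. Ctsb had 2963 and 2967 against 2512 and 2640 CPM (log2 -0.20), Ctsa, which also protects other hydrolases, 529 and 542 against 481 and 478 CPM (log2 -0.16), and Ctsd 9135 and 9578 against 7695 and 8323 CPM (log2 -0.22). Groups did not overlap for any of the 3, and edgeR's adjusted p was 0.552, 0.552 and 0.560. These genes were picked by a small p, and 41.2% of all genes did not overlap in microglia. The other members among the 8 smallest p were Gusb (174 and 189 against 164 and 168 CPM), Mitf (262 and 280 against 245 and 254 CPM), Scarb2 (203 and 192 against 188 and 181 CPM) and, in the other direction, Ctsc (413 and 437 against 439 and 488 CPM). In Spp1-high myeloid cells Ctsb had 5310 and 5010 against 4545 and 4512 CPM (log2 -0.19, edgeR adjusted p = 0.703). Acp5 (2.56 and 3.85 against 4.15 and 4.35 CPM), Mcoln3 (15.7 and 12.9 against 15.2 and 19.3 CPM), Ctsa (779 and 785 against 748 and 698 CPM), Atp6ap2 (182 and 179 against 171 and 166 CPM), Atp6ap1 (137 and 141 against 128 and 132 CPM) and Gusb (258 and 242 against 240 and 222 CPM) followed. Of these only Mcoln3 overlapped between groups. They too were picked by a small p, and 37.1% of all genes did not overlap in Spp1-high myeloid cells.

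**Figure D4:**
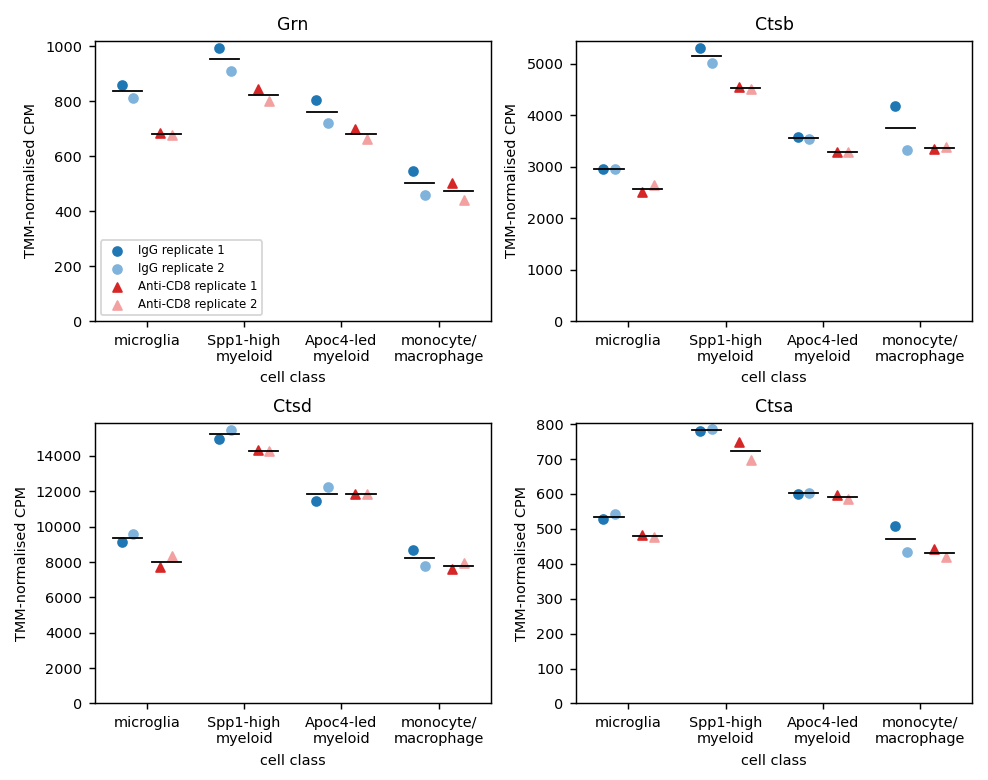
TMM-normalised CPM of Grn, Ctsb, Ctsd and Ctsa in the 4 myeloid classes, 1 point per library (circles IgG, triangles Anti-CD8) with bars at the mean of each pair and axes from 0. The microglial Anti-CD8 points lie under the IgG points for all 4 genes, and differences between classes are larger than those between antibodies for Ctsb and Ctsd.

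In monocyte/macrophages the smallest p belonged to Ctsk, with 7.80 and 13.8 against 3.19 and 6.53 CPM (log2 -1.14, SE 0.35, edgeR adjusted p = 0.939). Ctsl had 1199 and 943 against 678 and 972 CPM, and Mcoln3 32.4 and 26.1 against 18.8 and 26.5 CPM, so both overlapped. Atp6v1h (83.6 and 82.3 against 73.3 and 74.7 CPM), Cd68 (732 and 652 against 608 and 643 CPM) and Atp6v1b2 (162 and 157 against 141 and 151 CPM) did not overlap, while Atp6v1e1 (245 and 226 against 193 and 226 CPM) and Ctsb (4177 and 3333 against 3348 and 3378 CPM) did. Of all genes tested in this class, 34.4% did not overlap. Ctsk and Ctsl were called only when the filter on low counts was left out (edgeR adjusted p = 0.00051 and 0.00853). Leaving it out gave 93 calls among 23550 genes, against 0 of 12383 with the filter. In the Apoc4-led cluster Acp5 had 2.51 and 2.81 against 3.69 and 4.22 CPM and Atp6v0d2 65.3 and 81.4 against 79.5 and 102 CPM. Atp6v0d2 was called there when Anti-CD8 replicate 1 was left out (log2 0.48, edgeR adjusted p = 0.0168) and with the replicate number as a block (adjusted p = 0.0387).

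As a group the members lay below 0 more often than not in the 3 named myeloid classes, though the count depended on scaling and, in monocyte/macrophages, on clustering. The log2 fold change was below 0 for 28 of 40 members in microglia (50.3% of genes), 30 of 40 in Spp1-high myeloid cells (50.2%) and 33 of 40 in monocyte/macrophages (49.4%), with medians of -0.06, -0.06 and -0.09. At Leiden resolution 2, a finer clustering, 23 of 38 members tested in monocyte/macrophages lay above 0, with a median of 0.03. In the Apoc4-led cluster it was 24 of 40 (50.4%), with a median of -0.03. Without TMM scaling 20, 18 and 10 of the 40 members lay above 0 in microglia, Spp1-high myeloid cells and monocyte/macrophages, where TMM gave 12, 10 and 7, and the median of all genes moved to 0.06, 0.04 and 0.05. In the Apoc4-led cluster it was 21, from 16, with a median of all genes of 0.03. By role, 7 of 9 cathepsins and 6 of 6 membrane proteins were below 0 in microglia with TMM, and 4 of 11 pump genes. Groups did not overlap, with Anti-CD8 lower, for 15 of 40 members in microglia (20.9% of genes), 21 of 40 in Spp1-high myeloid cells (19.1%) and 9 of 40 in monocyte/macrophages (16.8%). They did not overlap with Anti-CD8 higher for 3 (20.3%), 2 (18.0%) and 1 (17.6%). The sum over the 40 genes was 3.18% and 3.23% against 3.03% and 3.04% of microglial UMIs, and 4.51% and 4.52% against 4.34% and 4.36% in Spp1-high myeloid cells. Most of that gap lay in 3 genes, since without Ctsb, Ctsd and Ctss the difference of the means was -0.02 percentage points in microglia, from -0.17, and -0.05 in Spp1-high myeloid cells, from -0.16. The 2 groups did not overlap in the sum of either class, but did in monocyte/macrophages (3.72% and 3.30% against 3.23% and 3.48%).

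The test of whether the antibody effect differed between microglia and Spp1-high myeloid cells called 0 of the 40 members (0.00577% of 17333 genes). Between microglia and monocyte/macrophages it also called 0 (0.0119% of 16756 genes). An unadjusted p under 0.05 was found for 0 members in the first pair and for 4 in the second (Atp6v0d2, Atp6v1h, Ctsk and Mcoln3), and DESeq2 was not run on these differences. The share of all genes at that level is not given here, so these counts are not read as a result about the members. The smallest belonged to Atp6v0d2 (difference -0.42 on the log2 scale, SE 0.12, unadjusted p = 0.00306, edgeR adjusted p = 0.62). Without IgG replicate 2, which leaves 1 IgG library, the test called Acp5 in the first pair and Ctsl and Atp6v0d2 in the second. These calls are likewise given without the share of all genes.

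Of the lysosomal genes outside the 40, none was called in the 4 myeloid classes by edgeR. In microglia 13 of 188 tested had an unadjusted p under 0.05, where 8.75% of all genes had one, and 9 of the 13 were among the 49 other hydrolases. The median of the 49 was -0.10, and 39 of the 49 were below 0, against 50.3% of all genes. Cst7, which encodes cystatin F, an inhibitor of cathepsins in immune cells, had 687 and 715 against 458 and 547 CPM (log2 -0.48, edgeR adjusted p = 0.413), and was called by DESeq2. It was 1 of 60 genes that DESeq2 called among 17368 in microglia. The alpha-mannosidase gene Man2b2 had 19.3 and 19.8 against 15.9 and 15.2 CPM in microglia and 20.1 and 19.4 against 15.1 and 15.2 CPM in Spp1-high myeloid cells, with no overlap in either. In T cells 2 list genes rose, 1 a cathepsin inhibitor gene and 1 from the osteoclast-type list. Serpinb1a, an inhibitor of granule proteases, had 44.0 and 52.9 against 178 and 138 CPM (log2 1.69, edgeR adjusted p = 0.00501), and the integrin gene Itgb3 44.8 and 48.4 against 124 and 107 CPM (log2 1.31, edgeR adjusted p = 0.0053). The makeup of the T cell class moved with the antibody. Its cluster 18, led by Trdc and Icos and with Il17a among its leading genes, held 21 of 329 and 70 of 704 T cells in the IgG libraries and 103 of 417 and 64 of 258 in the Anti-CD8 libraries. Its cluster 9, with Cd8b1 among its leading genes, held 288 and 578 against 263 and 158. The part of this in the 2 differences was not tested. No member was called in T cells (0 of 37 tested, 0.905% of 10279 genes, 1 with an unadjusted p under 0.05, DESeq2 0). The same held in endothelial cells (0 of 38, 0.0% of genes), ependymal cells (0 of 36, 0.00701% of genes) and pericytes and smooth muscle (0 of 35, 0.0% of genes), with 0 (4.76% of genes), 1 (2.31%) and 0 (3.88%) members at an unadjusted p under 0.05 and none called by DESeq2. In T cells 0.73% of genes were called higher. The log2 fold change was below 0 in 15 of 37 members tested in T cells (51.2% of genes), 12 of 38 in endothelial cells (50.0%), 13 of 36 in ependymal cells (51.1%) and 30 of 35 in pericytes and smooth muscle (49.9%). Single libraries turned some of these directions. Without Anti-CD8 replicate 2, 15 of 37 members lay above 0 in T cells (median -0.11, from 0.06) and 23 of 36 in pericytes (median 0.04, from -0.16). Without IgG replicate 2 it was 19 of 36 in pericytes (median 0.05), and without IgG replicate 1 it was 18 of 36 in ependymal cells. The stricter cell filter gave 17 of 37 in T cells (median -0.03). Pericytes also held the RNA of microglia markers given above, and its part in the pericyte counts was not tested. NK cells were not tested, since IgG replicate 1 held 16.

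Neurons were the only class in which members passed the test. There 6 of 37 tested members rose after Anti-CD8 and 0 fell (1.29% of 13989 genes were called, 0.929% upward). They were the cathepsin genes Ctsh, Ctss and Ctsz, the membrane genes Cd68 and Laptm5, and Grn. Laptm5 had 39.3 and 45.2 CPM in the IgG libraries and 95.5 and 86.4 CPM in the Anti-CD8 libraries (log2 1.10, SE 0.17, edgeR adjusted p = 0.0179). Ctss had 182 and 231 against 386 and 443 CPM (log2 1.00, adjusted p = 0.025). Cd68 had 38.1 and 37.8 against 76.4 and 82.7 CPM, Ctsh 42.1 and 38.2 against 82.5 and 84.4 CPM, Ctsz 180 and 168 against 343 and 343 CPM, and Grn 59.0 and 49.1 against 94.1 and 101 CPM. Groups did not overlap for any of the 6, which were picked by their adjusted p. Of all genes tested in neurons 39.0% did not overlap, and 20.2% did so with Anti-CD8 higher. The 11 pump genes had 0 calls, 2 above 0 and a median of -0.04. The list genes that rose in neurons included Lgmn, Cst7, Fos, Trem2 and Tyrobp, of which Trem2 and Tyrobp encode a microglial receptor and its adaptor.

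Markers of microglia moved with these genes. The summed level of the 10 microglia markers in neurons was 86.9 and 125 CPM in the IgG libraries and 215 and 232 CPM in the Anti-CD8 libraries, with 0 of the 10 at 0, which is 3.85% and 5.23% against 8.78% and 10.7% of their level in myeloid cells of the same library. The 6 genes stood at like percentages of their own myeloid level, for example Laptm5 at 4.21% and 4.67% against 10.5% and 9.46%, and Cd68 at 4.91% and 5.27% against 10.9% and 11.2%. None of the 6 was among the 15 of 40 members that were at least 3 times above the marker percentage in all 4 libraries in neurons. Those 15 included 10 of the pump genes, all but Atp6v0d2. In the neurons without a UMI of any of the 10 markers (42 and 87 IgG cells, 53 and 60 Anti-CD8 cells, of 91, 173, 122 and 157), edgeR called 0 of 30 tested members, and 0 had an unadjusted p under 0.05. Of all 10101 genes tested in these cells, 6 were called and 443 had an unadjusted p under 0.05. In all neurons 180 of 13989 genes were called, so calls were fewer over all genes and not among the members alone. There Ctss had 41.4 and 53.3 against 52.3 and 67.7 CPM (log2 0.32, SE 0.27) and Ctsz 42.6 and 49.7 against 31.8 and 61.5 CPM (log2 0.00, SE 0.33). The log2 fold change there was 0.51 (SE 0.47) for Laptm5 and 0.41 (SE 0.35) for Grn, while Ctsh and Cd68 had too few UMIs to be tested. The calls also depended on single libraries and on doublet removal. Leaving out either Anti-CD8 library gave fewer calls, among the members and over all genes alike. With doublets kept edgeR called 0 members, where 1 of 14115 genes was called, so this loss was not limited to the members. The members' median log2 fold change was 0.28 when replicate 1 of Anti-CD8 was left out, 0.32 when replicate 2 was, and 0.30 with doublets kept. It was 0.30 with all libraries and doublets removed. DESeq2 called 7 members, where it called 175 of 13989 genes. Among neurons without a marker UMI the median was 0.00.

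**Figure D5:**
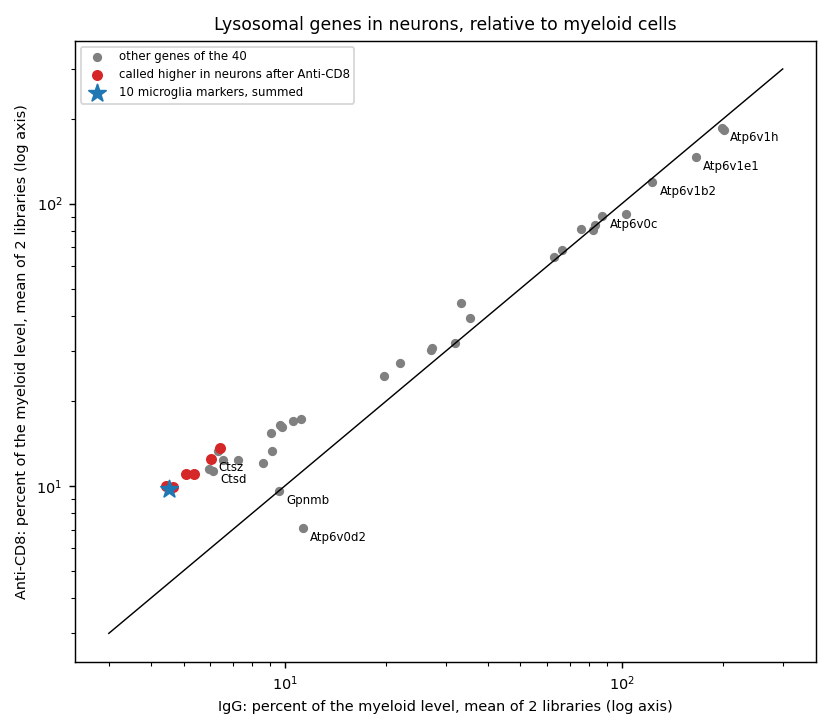
Level in neurons as a percentage of the level in the myeloid classes of the same library, mean of the 2 IgG libraries (horizontal) against the 2 Anti-CD8 libraries (vertical), both on log axes, for 38 members (Ctsk and Acp5 are not drawn) and the summed microglia markers (star); the line marks equal levels. The 6 called genes (red) lie beside the star, and the pump genes other than Atp6v0d2 lie near the line at the upper right.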

How the data were processed

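The authors deposited unnormalised UMI counts of genes in barcodes for 4 droplet-based 3′ libraries, whole numbers per the file headers. The submitters' processing notes name Cell Ranger 7.1.0 and GRCm39. Which annotation release was used, and whether intronic reads were counted, is not given in the sources used here. Barcodes under 300 genes or over 20% mitochondrial UMIs were dropped, and the cells with the highest Scrublet doublet scores (0.8% per 1000 cells of a library, 332, 353, 511 and 562 cells) were removed. Clusters were made in scanpy 1.11.5 and leidenalg 0.10.2 (3000 variable genes without the members and lysosomal lists, 30 principal components, 15 neighbours, resolution 1) and named from marker lists, with naming thresholds set after the clusters were seen. Sums of counts over the cells of a class in a library were tested with edgeR 4.0.16 in R 4.3.3 (quasi-likelihood test, TMM, filterByExpr), with a call at an adjusted p under 0.05, where each library held 20 or more cells of the class. DESeq2 1.42.0 was the alternative, and the fit was tested on simulated data. The SE was obtained as log2 fold change over √F. Intervals are exact binomial and cover counting error only, as PCR and cell sampling add spread. Plots were drawn with matplotlib 3.10.9. All 4 libraries were used. Promoter windows come from RefSeq on GRCm38.p6 and were not combined with coordinates of the files.

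The members and gene lists were chosen with earlier results of these data known. Among members, values of every library are given for those called, otherwise for the 8 with the smallest p in each of the 3 named myeloid classes. From the lists, genes called, past 2-fold or among the smallest p of a list were named, except where a result is not reported here. Other members, the Apoc4-led cluster and single clusters were described after their values were seen.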

Additional observations from a re-analysis of the deposited data

Results flagged for a closer look

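In 4 members the antibody difference had opposite signs in 2 classes, with groups that did not overlap in either. They were picked by this rule from the 6 members called in neurons, so the pattern is the rule itself. Of all genes, 20.2% were higher without overlap in neurons and 20.9% were lower without overlap in microglia. The share of genes with both is not given here. Laptm5, Ctss, Ctsz and Grn were higher after Anti-CD8 in both libraries of neurons, with log2 fold changes of 1.10, 1.00, 0.98 and 0.86, and lower in both libraries of microglia. The difference between the classes was not tested. The summed microglia markers in neurons moved with them, from 3.85% and 5.23% of the myeloid level in the IgG libraries to 8.78% and 10.7% in the Anti-CD8 libraries. In neurons without a UMI of those markers edgeR called 0 of 30 members, where 6 of 10101 genes were called.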

How the results depend on the processing

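With 2 libraries against 2, no exact test over samples can go below 0.33, and calls rest on the spread shared across genes. In counts of members called, leaving out the low-count filter gave 1 in Spp1-high myeloid cells, 1 in endothelial cells, 1 in pericytes, 2 in monocyte/macrophages and 12 in neurons (6 with the filter). Calls over all genes were then 243 of 27535, 139 of 25885, 57 of 18505, 93 of 23550 and 743 of 27032, in the same order of classes. With the filter 180 genes were called in neurons and 0 in the other classes of this list. DESeq2 gave 1 member and 1 list gene in microglia and 1 list gene in pericytes, where it called 60 of 17368 and 1 of 8049 genes. Without doublet removal neurons had 0 members called, where 1 of 14115 genes was called (14 members at an unadjusted p under 0.05, median log2 0.30, as with removal). Among neurons without a marker UMI 0 members were called, where 6 of 10101 genes were (0 members at an unadjusted p under 0.05, median 0.00). This alternative was chosen after seeing the data, as was leaving out the interferon-led cluster. Leaving out 1 library at a time gave 0 to 1 members in Spp1-high myeloid cells, the Apoc4-led cluster and pericytes, 0 to 6 in neurons (0 when Anti-CD8 replicate 1 was left out and 2 when its partner was), and for list genes 0 to 1 in Spp1-high myeloid cells, microglia, endothelial cells, ependymal cells and pericytes, 0 to 3 in the Apoc4-led cluster and 0 to 9 in neurons. The difference of antibody effects then gave 0 to 1 members for microglia with Spp1-high myeloid cells and 0 to 2 for microglia with monocyte/macrophages, in both cases above 0 without IgG replicate 2. A group left with 1 library is assumed to vary like the other. In neurons, leaving out either Anti-CD8 library also gave fewer calls over all genes, so the loss was not limited to the members. The cause of these changes was not tested.

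The labels do not say whether the replicate numbers pair the libraries. The correlation of same-numbered deviations lay between -0.036 and 0.036 over the classes. With 2 libraries in a group the deviations mirror each other, so this cannot show whether libraries were prepared in pairs. With the replicate number as a block, 1 member and 1 list gene were called in the Apoc4-led cluster, 3 list genes in Spp1-high myeloid cells, 6 in T cells (2 without the block) and 11 in neurons (6 without), while 9 members were called in neurons. Over all genes it called 83 of 14238 in the Apoc4-led cluster (3 without the block) and 105 of 15551 in Spp1-high myeloid cells (0 without). In T cells it called 294 of 10279 genes (93 without) and in neurons 397 of 13989 (180 without).

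At a 1.5-fold threshold, 7 members were higher and 1 lower in Spp1-high myeloid cells than in microglia, 5 were higher in the Apoc4-led cluster, 1 was lower in monocyte/macrophages than in microglia and 8 were lower than in Spp1-high myeloid cells. At 2-fold, where 0 were lower in that last pair, clustering with the members and the mean of CPM per cell each gave 1 (Ctsl). Without Ctsb, Ctsd and Ctss the Anti-CD8 minus IgG sums were -0.024 percentage points in microglia and -0.047 in Spp1-high myeloid cells. Thinned to 5000 UMIs, the shares in microglia, Spp1-high myeloid cells, the Apoc4-led cluster and monocyte/macrophages were 2.58%, 29.4%, 17.4% and 26.5% for Atp6v0d2, 0.607%, 1.58%, 1.33% and 29.0% for Acp5, and 0.715%, 5.85%, 4.20% and 6.99% for Mcoln3. For Ctsk they were 0.372%, 0.406% and 1.79% in microglia, Spp1-high myeloid cells and monocyte/macrophages.

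Of 412 values of named members under alternatives, 372 kept direction and side of the threshold, 26 lost the call, 6 gained it and 8 changed sign. The sign changed at resolution 2 in monocyte/macrophages for Atp6v1e1 (0.20), Cd68 (0.10), Ctsb (0.086) and Atp6v1b2 (0.25) and in the Apoc4-led cluster for Acp5 (-0.0081) and Mcoln3 (-0.23). It also changed for Acp5 there under the stricter cell filter (-0.14) and for Ctsb in monocyte/macrophages when 1 library was left out at a time (-0.32 to 0.012, above 0 without IgG replicate 1). None of these was called, and the cause was not tested. Ctsk and Mcoln3 in monocyte/macrophages had 11 alternatives, and the Apoc4-led cluster gave no value without doublet removal.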
